A study of Mus musculus with 7 samples.

Results

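Methylation at the genes of the ionotropic glutamate receptor subunits was read from a custom Illumina GoldenGate array of mouse DNA (Mus musculus, strain C57BL/6). The members were all probes whose symbol, the part of the probe ID before its last hyphen, starts with Gria, Grik, Grin or Grid and a digit. This rule found 18 probes of 382, each for a different gene, and all 18 symbols are current in the RefSeq gene table of GRCm38.p6. They comprise 4 AMPA, 5 kainate and 7 NMDA receptor genes and genes of the delta class. The array reports a beta value per probe, from 0 for an unmethylated to 1 for a methylated CpG. The 7 arrays carry no replicate: 5 are titled Met_0, Met_25, Met_50, Met_75 and Met_100 with the tissue label DNA, and 2 are labelled brain and titled A2B5_mas and PSA-NCAM_mas. The Met numbers were taken to be nominal percentages of methylated control DNA, a reading not stated by the submitters. The A2B5 antibody binds gangliosides on progenitors of glia, whereas NCAM with polysialic acid (PSA-NCAM) marks young, migrating neurons. Not given are from which brain region and how the brain samples were isolated, how many animals gave DNA, their age and sex, and what the ending "mas" means.

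Ionotropic glutamate receptors are cation channels opened by glutamate, the main excitatory transmitter of the brain, and are built as assemblies of subunits of one class. AMPA receptors carry fast synaptic transmission. NMDA receptors pass calcium, need glycine or D-serine as a co-agonist and are blocked by magnesium at rest, and kainate receptors act on both sides of the synapse. The delta subunits bind no glutamate to open and instead link synapses through cerebellins and neurexins. Cells of the oligodendrocyte lineage also carry AMPA and kainate receptors. CpG-rich promoters are usually unmethylated, whether or not the gene is transcribed, so a low beta value does not stand for expression.

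A promoter sequence was found for 10 of the 18 members in the RefSeq table of GRCm38.p6. The sequences given here are the 250 bases before the gene's start, 5′ to 3′ on the gene's strand, with every CpG, the kind of site the array reads, in capitals. They show Grin2c and Gria4, the most methylated in brain of these 10 genes, then Grik5 and Grin1, the least methylated, then Grik3 and Grin3b, the richest and the poorest in CpG. The position of the probed CpG is not stated in the labels or the file, and may lie outside the window.
Grin2c: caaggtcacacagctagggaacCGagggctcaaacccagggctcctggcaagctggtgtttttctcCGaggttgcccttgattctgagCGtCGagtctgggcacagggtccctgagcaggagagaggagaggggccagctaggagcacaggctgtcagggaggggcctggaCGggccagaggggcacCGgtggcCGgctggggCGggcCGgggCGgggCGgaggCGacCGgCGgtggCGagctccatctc
Gria4: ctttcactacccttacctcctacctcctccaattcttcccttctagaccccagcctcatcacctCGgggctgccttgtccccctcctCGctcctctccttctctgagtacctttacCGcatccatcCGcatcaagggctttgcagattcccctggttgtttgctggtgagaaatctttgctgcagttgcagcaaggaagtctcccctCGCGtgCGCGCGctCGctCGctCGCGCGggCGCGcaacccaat
Grik5: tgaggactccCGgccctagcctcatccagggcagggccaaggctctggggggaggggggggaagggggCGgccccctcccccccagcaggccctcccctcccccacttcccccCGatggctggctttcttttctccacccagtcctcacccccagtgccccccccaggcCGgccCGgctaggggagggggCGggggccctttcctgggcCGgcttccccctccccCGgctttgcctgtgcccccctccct
Grin1: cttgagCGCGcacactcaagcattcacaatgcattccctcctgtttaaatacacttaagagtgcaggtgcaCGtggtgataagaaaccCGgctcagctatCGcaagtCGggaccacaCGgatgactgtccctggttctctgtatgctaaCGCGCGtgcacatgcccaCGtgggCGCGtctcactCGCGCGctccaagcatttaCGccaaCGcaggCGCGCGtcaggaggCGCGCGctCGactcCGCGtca
Grik3: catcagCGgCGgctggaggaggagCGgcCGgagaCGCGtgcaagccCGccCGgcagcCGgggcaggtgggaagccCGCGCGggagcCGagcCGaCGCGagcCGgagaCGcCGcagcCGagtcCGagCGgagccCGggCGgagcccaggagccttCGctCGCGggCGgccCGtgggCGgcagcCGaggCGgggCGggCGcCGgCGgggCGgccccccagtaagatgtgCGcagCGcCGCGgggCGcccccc
Grin3b: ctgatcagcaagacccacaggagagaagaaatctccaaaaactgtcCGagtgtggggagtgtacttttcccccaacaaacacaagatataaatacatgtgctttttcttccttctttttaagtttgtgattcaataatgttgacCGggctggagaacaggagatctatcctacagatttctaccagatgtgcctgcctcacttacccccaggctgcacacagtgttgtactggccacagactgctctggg
The Grin2c window is chr11:115267244-115267493 (minus strand) and the Gria4 window chr9:4796235-4796484 (minus strand). The Grik5 window is chr7:25072370-25072619 (minus strand) and the Grin1 window chr2:25319188-25319437 (minus strand). The Grik3 window is chr4:125490446-125490695 (plus strand) and the Grin3b window chr10:79970474-79970723 (plus strand).

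The letters CG were found in 92.1% of all 32851 promoter windows of this length, with a median of 6 per window (CG reads the same on both strands). The 10 member windows held a median of 17.5, and windows of the 267 array genes with an entry held 11.5. Grik3 had 42 CpGs, more than 99.1% of all windows, and Grik4 had 36. Grin1 had 27, Grik2 20, Gria2 19, Gria4 16 and Grin2c 15. Grin2d had 9, Grik5 8 and Grin3b 2. The brain levels did not follow this number. Grin3b with 2 CpGs and Grin1 with 27 both had brain beta values under 0.1, while Grin2c and Gria4, with 15 and 16, had the highest of these genes.

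In the brain arrays most receptor subunit probes were nearly unmethylated. The beta value was under 0.2 in both brain arrays at 15 of 18 members (83.3%), against 66% of all 382 probes, and under 0.1 in both at 11 members, against 48.7% of all probes. No member was over 0.8. Singly, 15 members were low in A2B5_mas, where 66.2% of all probes were, and 16 in PSA-NCAM_mas, where 69.4% were. In A2B5_mas the median over members was 0.0770 and over all probes 0.101, and in PSA-NCAM_mas these were 0.0816 and 0.0970. With 1 array per title these values have no test, and probes of an array are not replicates.

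**Figure D1:**
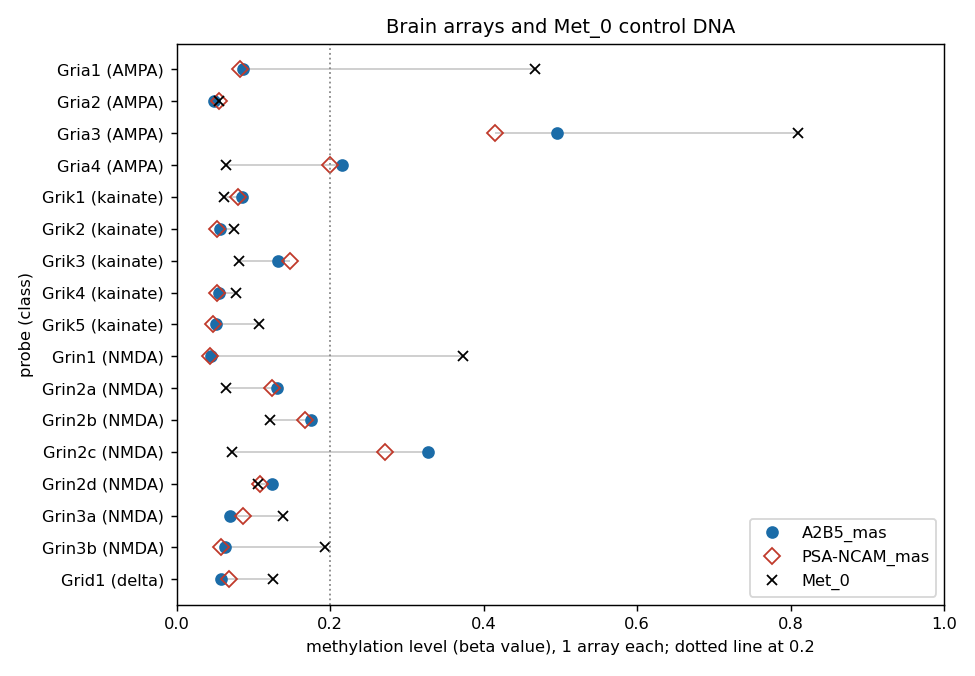
Beta value of the members named in the text (rows, by class) in A2B5_mas (filled circle), PSA-NCAM_mas (open diamond) and Met_0 (cross), 1 array each. All but Gria3, Grin2c and Gria4 lie left of the dotted line at 0.2 in both brain arrays, and the crosses of Gria1, Gria3 and Grin1 lie far to the right of the brain values.

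The AMPA class spread from low levels at Gria2 and Gria1 to an intermediate level at Gria3, with Gria4 between them. Gria2 encodes GluA2, whose edited form makes AMPA receptors impermeable to calcium, and its beta value was 0.0485 in A2B5_mas and 0.0550 in PSA-NCAM_mas. Gria1, the gene of GluA1, a subunit regulated in synaptic plasticity, had 0.0870 and 0.0831. Gria4, the gene of GluA4, had 0.216 and 0.1999, so it stood on the limit of 0.2. Gria3, the gene of GluA3 and the one X-linked member, had 0.495 and 0.415, the highest level of all members. It stood at rank 66 of the 382 probes, counted from the most methylated. The class median of the mean of both brain arrays was 0.146 over the 4 probes, and 0.0850 over the 3 probes left without Gria3, so this gene decided the value.

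The kainate class was low throughout. Grik1 and Grik2, the genes of GluK1 and GluK2, which form channels on their own, had 0.0848 and 0.0566 in A2B5_mas and 0.0801 and 0.0527 in PSA-NCAM_mas. Grik4 and Grik5 encode GluK4 and GluK5, which need GluK1, GluK2 or GluK3 as partners. Their probes had 0.0553 and 0.0514 in A2B5_mas and 0.0522 and 0.0474 in PSA-NCAM_mas. Grik3, the gene of GluK3, was the highest of the class, with 0.132 and 0.148. The class median was 0.0547.

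Levels in the NMDA class ran from low at Grin1 to intermediate at Grin2c, with only small steps between several neighbours. Grin1 encodes GluN1, the subunit present in every NMDA receptor, and had the lowest brain level of all members, with 0.0448 in A2B5_mas and 0.0438 in PSA-NCAM_mas. Grin3a and Grin3b, the genes of the glycine-binding GluN3 subunits, had 0.0692 and 0.0628 in A2B5_mas and 0.0866 and 0.0575 in PSA-NCAM_mas. The 4 Grin2 genes, whose products bind glutamate and set the kinetics of the receptor, were all above these 3 genes in both arrays.

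Grin2d, expressed early and later in interneurons and brain stem, had 0.125 in A2B5_mas and 0.109 in PSA-NCAM_mas. Grin2a, which rises after birth, had 0.131 and 0.125. Grin2b, which dominates in the immature forebrain, had 0.174 and 0.168. Grin2c, best known from cerebellar granule cells, had 0.328 and 0.272, the only NMDA receptor probe over 0.2 in either array. In the mean of both arrays Grin2a lay 0.0108 above Grin2d, and Grin2b 0.0434 above Grin2a. The class median was 0.117.

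In the delta class Grid1, expressed widely in forebrain, was low, with 0.0574 in A2B5_mas and 0.0680 in PSA-NCAM_mas. In Met_0 it had 0.125, above both brain arrays.

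A yardstick for the error of an array was taken from the middle of the Met series, as the distance of Met_50 from the midpoint of its neighbours Met_25 and Met_75 over the 331 probes with a rise of at least 0.3 in the series. It gave an SD of 0.0231 per array and 0.0326 for a difference of 2 arrays, bend of the curves and mixing error included. Since the middle Met arrays lie mostly at higher beta values, the yardstick may not apply to low probes. The largest departure among members was that of Grik5, with Met_50 0.0599 off the midpoint. In the order of all members by the mean of both brain arrays, 5 of the 17 gaps between neighbours exceeded 0.0231, which is also the SD for a difference between means of 2 arrays. They were those from Gria3 to Grin2c, from Grin2c to Gria4, from Gria4 to Grin2b, from Grin2b to Grik3 and from Grin2d to Gria1. The other 12 gaps reached at most 0.0152, so these neighbours did not differ beyond this SD. Each probe has its own scale, as the Met series shows, so an order of beta values need not be an order of methylation.

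The comparison of A2B5_mas with PSA-NCAM_mas asks whether glial and neuronal progenitor material differ at these genes. A difference of at least 0.05 was found at 2 members, both higher in A2B5_mas (11.1%), against 12% of all probes higher by this size. No member was lower by this size, against 0.785% of all probes. The members' share is thus near the background. The 2 were Gria3, 0.0797 higher in A2B5_mas, and Grin2c, 0.0564 higher. Next came Gria4 with 0.0160 and Grin2d with 0.0157. The other direction was led by Grin3a, -0.0174, Grik3, -0.0161, and Grid1, -0.0106. In sign alone 14 members were higher in A2B5_mas and 4 lower, and of all probes 65.2% were higher. The median absolute difference was 0.00627 over members and 0.0108 over all probes.

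**Figure D2:**
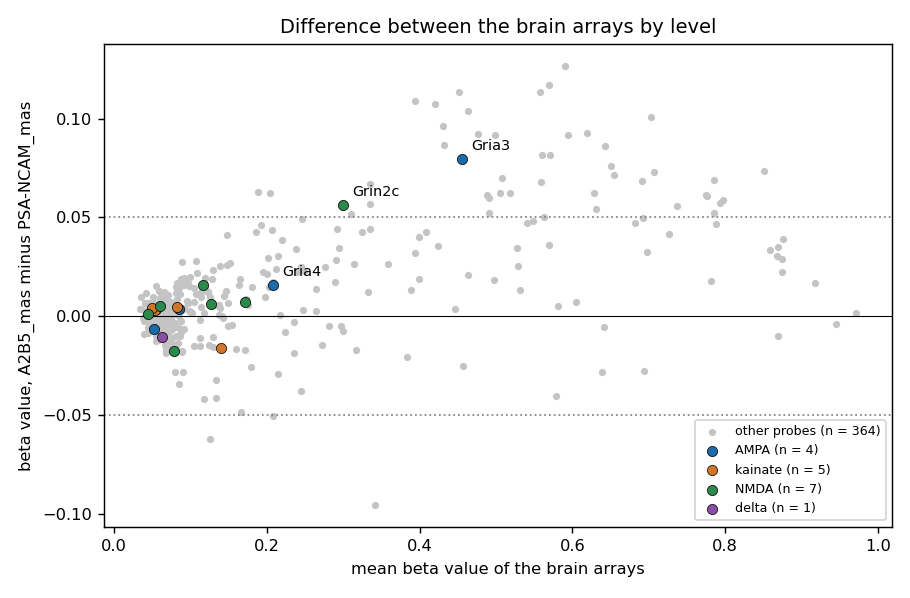
Difference of beta values, A2B5_mas minus PSA-NCAM_mas, against the mean of both arrays for other probes (grey) and the members named in the text (coloured by class), with dotted lines at 0.05 in each direction. Gria3 and Grin2c are the only members beyond a line, and many other probes of intermediate level lie above it too.

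Both differences stood where the array as a whole leaned towards A2B5_mas. Among the 61 other probes with a mean brain level from 0.4 to 0.8, as for Gria3, the median difference was 0.0591, and 37 were at least 0.05 higher in A2B5_mas. Among the 49 with a mean from 0.2 to 0.4, as for Grin2c and Gria4, the median was 0.0228, 5 were higher and 2 lower by this size. The part of this lean in the members' differences was not tested. After quantile normalization of the brain arrays to each other, Gria3 differed by 0.0160 and Grin2c by 0.0359, so neither reached 0.05.

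Set against Met_0, the control DNA with the lowest number, some members were lower in both brain arrays and some higher. Both brain arrays were at least 0.1 below Met_0 at 4 members (22.2%), near the 17.8% of all probes. They were at least 0.1 above it at 2 members (11.1%), against 21.5% of all probes. With so few members, neither share was tested against that of the array. The 4 lower were Gria1, Gria3, Grin1 and Grin3b. Gria1 had 0.467 in Met_0 and was 0.380 lower in A2B5_mas and 0.384 lower in PSA-NCAM_mas. Grin1 had 0.373 in Met_0 and was lower by 0.328 and 0.329. Gria3 had 0.809 in Met_0, the fourth highest value of the 382 probes there, and was lower by 0.314 and 0.394. Grin3b had 0.194 and was lower by 0.131 and 0.136.

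The 2 members above Met_0 were Grin2c, with 0.0727 in Met_0 and brain values higher by 0.255 and 0.199, and Gria4, with 0.0651 and brain values higher by 0.151 and 0.135. At the remaining 12 members the brain arrays and Met_0 differed by less than 0.1 in both comparisons. This was not counted over all probes, so it is not read as a trait of the members. In sign, both brain arrays were under Met_0 at 11 members, against 58.1% of all probes, so Met_0 was no floor for these probes. The source of the Met_0 DNA is not given in the labels.

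The Met series asks at which probes the readout follows the number in the title. A straight line was fitted to log2(beta / (1 - beta)) of each probe over the 5 Met arrays with limma, and p-values were adjusted by Benjamini-Hochberg over all 382 probes. At an adjusted p under 0.05, 16 of 18 members rose, against 85.1% of all probes, and 0 fell, against 1.05%. The unadjusted limma p was under 0.05 at the same number, 16 members, and at 337 of all 382 probes. All probes were read on the same 5 arrays, so their calls are not independent, and the labels do not tell whether the Met arrays are mixtures of common stocks. The members' share is near that of the array. The slope from 0 to 100 ran from 2.58 to 6.38 among those called, with limma adjusted p from 0.0118 to 0.0236. Without Met_100 0 members passed limma's adjusted p, and 0 of all 382 probes did. At an unadjusted limma p under 0.05 there were 12 members and 232 of all probes. Most slopes did not shrink without Met_100: 14 of the 18 members had a larger one, Gria3 among them with 0.029 against -0.21. The median slope was 5.02 against 4.75 in the full series, with a median SE of 1.70 against 1.05. Smaller were the slopes of Gria1, 1.39 against 2.58, Grik5, 2.54 against 3.20, Grin2d, 2.75 against 2.96, and Grik2, 4.83 against 4.87. Without Met_0 the median slope was 2.61, and 16 members passed, with 316 of all 382 probes rising.

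**Figure D3:**
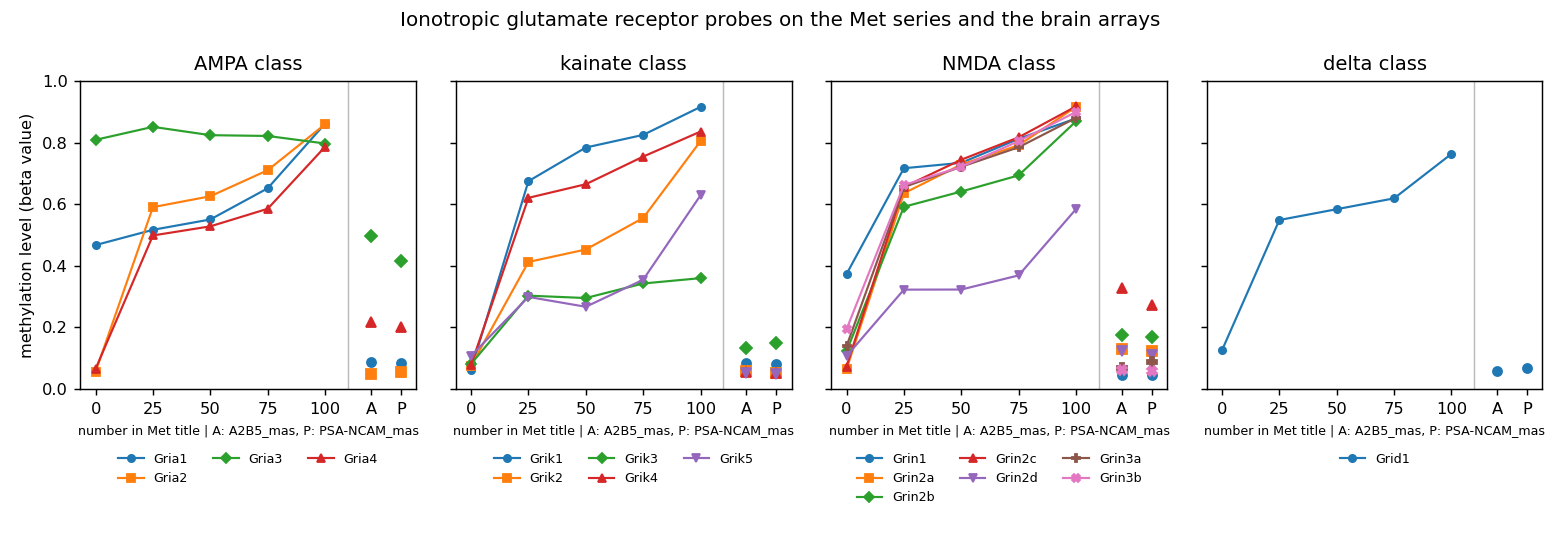
Beta value of the members named in the text on the Met arrays (lines, by the number in the title) and on the brain arrays (points at A and P), 1 panel per class and 1 array per point. Nearly all lines jump between 0 and 25. Gria3 runs flat near the top, and Grik3 ends at 0.360.

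The steepest members were Grik1, with a slope of 6.38 ± 1.49 (SE, n = 5 arrays, limma adjusted p = 0.0121), Grin2a with 6.31 ± 1.36 (limma adjusted p = 0.0118) and Grin2c with 6.21 ± 1.34 (limma adjusted p = 0.0118). Their size rested on Met_0, without which these slopes were 3.02, 3.38 and 3.30. Grin2c, for example, had 0.0727, 0.656, 0.744, 0.817 and 0.918 in the order of the title numbers. Its levels in the brain arrays, 0.328 and 0.272, lay between the first and the second of these. Grik1 had 0.0614, 0.675, 0.784, 0.825 and 0.916 along the same series, and its brain values of 0.0848 and 0.0801 lay just above Met_0.

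The 2 members not called differed in kind. Gria3 had 0.809, 0.851, 0.824, 0.822 and 0.797 along the series, a slope of -0.21 ± 0.67 (SE, n = 5 arrays, limma adjusted p = 0.772). Its probe was thus high in every Met array, and both brain arrays lay below all 5. Its brain level cannot be placed on a scale between unmethylated and methylated control DNA. Grik3 had 0.0810, 0.303, 0.295, 0.342 and 0.360, a slope of 2.24 ± 0.93 (SE, n = 5 arrays, limma adjusted p = 0.0566). Its range between Met_0 and Met_100 was only 0.279, and its brain values of 0.132 and 0.148 lay between Met_0 and Met_25. Without Met_25 17 members passed, but there limma gave every member the same SE of 0.910. Those calls therefore do not rest on each probe's own spread. The exact permutation test also called 17, Grik3 among them, but over all probes it called 335 rising and 6 falling. Each member that rose at every step got the same unadjusted permutation p of 0.0167. Grik3 and Grik5, which dipped at Met_50, got 0.0333. With 5 arrays these calls follow from the order of the values and are no separate evidence for the members.

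Further probes had short ranges between Met_0 and Met_100. Gria1 and Grin1, which started high, had ranges of 0.394 and 0.506, and Grin2d and Grik5, which ended low, 0.477 and 0.521. Grin2d ended at 0.584 and Grik5 at 0.629 in Met_100, against a median of 0.861 over members and 0.820 over all probes. Beta values rose at every step of the series at 15 members, against 79.6% of all probes. Grik3 and Grik5 dipped at Met_50, and Gria3 rose in only 1 step. The share of the rise between Met_0 and Met_100 already reached in Met_25 had a median of 66.4% over the 16 members with a rise of at least 0.3. Gria1, which started high, stood out with 12.6%, and Grik5 and Grin2d followed with 36.7% and 45.2%. The rule of a rise of at least 0.3 was met by 16 members, against 86.6% of all probes.

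Read off each probe's own Met curve, made monotone and linear between points, the intermediate members came down. Grin2c stood at 10.9% in A2B5_mas and 8.53% in PSA-NCAM_mas, Gria4 at 8.70% and 7.78%, and Grik3 at 5.86% and 7.71%. Grik3 thus came close to Gria4, although its beta values were lower. Grin2a stood at 2.92% and 2.66% and Grin2b at 2.81% and 2.44%, so Grin2b no longer stood above Grin2a as it did in beta values. These readings lay close together and have no computed error, so they give no order of these genes. No Met array lies between Met_0 and Met_25, so the curve there is a straight line by construction. Grin2d stood at 2.10% and 0.281% and Grik1 at 0.954% and 0.761%. The 11 members with brain values below Met_0 in both arrays read 0 on this scale, which for Gria3 has no meaning because its curve does not rise.

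Gria3 was set beside the 16 other probes of X-linked genes, matched by current symbol, since methylation of such genes can differ by sex, which is not given for these animals. Those probes had median beta values of 0.291 in A2B5_mas and 0.281 in PSA-NCAM_mas, with means of both arrays from 0.0895 to 0.859, so Gria3 lay within their range. In Met_0 they ran from 0.0619 to 0.436, all below the 0.809 of Gria3. Of the 16, 15 had a rise of at least 0.3 in the Met series. The part of the X chromosome in the brain level of Gria3 was not tested.

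The probes most like the 3 highest members, by Euclidean distance over the beta values of all 7 arrays, were as follows. Nearest to Gria3 were Lhcgr (the luteinizing hormone receptor) at 0.121 and Adra2c (an adrenergic receptor) at 0.25. Nearest to Grin2c were Galr3 (a galanin receptor) at 0.0985 and Tmhs (now Lhfpl5, of the hair cell transduction complex) at 0.0989. Nearest to Gria4 were Sstr3 (a somatostatin receptor) at 0.0922 and Gcgr (the glucagon receptor) at 0.138. Lhcgr, like Gria3, was high throughout the Met series, with 0.740 in Met_0 and 0.769 in Met_100, and had 0.509 in A2B5_mas and 0.395 in PSA-NCAM_mas.

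Beside other receptor families the members' median for the mean of both brain arrays, 0.0802, was close to that of the 7 metabotropic glutamate receptor probes, 0.0818. The 16 subunits of GABA-gated channels had 0.114, the 3 nicotinic receptor subunits 0.175 and all probes 0.0974. Both brain arrays were under 0.2 at 15 of 18 ionotropic, 6 of 7 metabotropic, 9 of 16 GABA channel and 2 of 3 nicotinic probes, against 66% of all probes. These differences between families were not tested, since the probes of a family share the same 2 arrays.

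**Figure D4:**
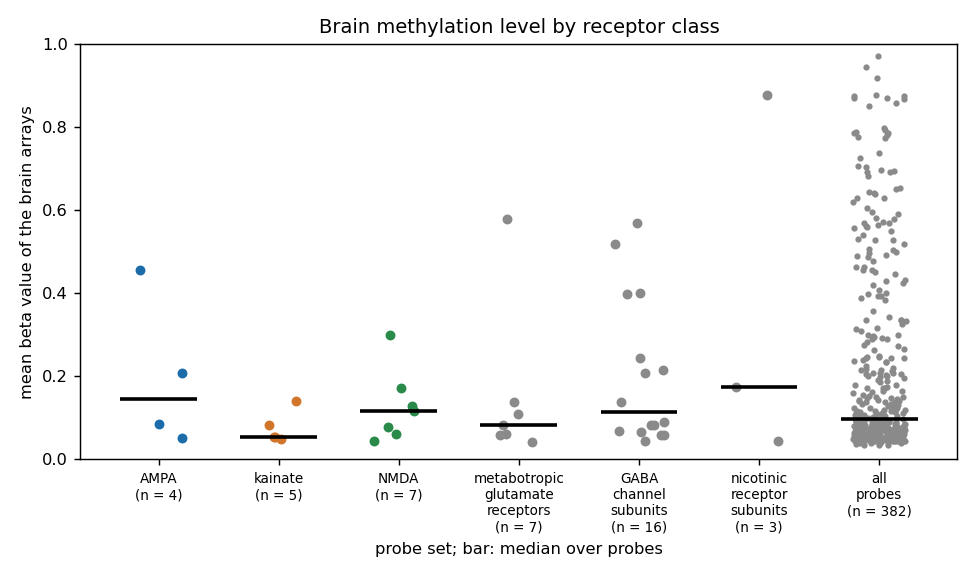
Mean beta value of both brain arrays for each probe (points) and the median over probes (bars), for the AMPA, kainate and NMDA classes, related receptor families and all probes. The kainate points lie under 0.2, and Gria3 stands alone above the AMPA class.

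Of 62 further genes of glutamate signalling on a list of receptors, transporters, scaffolds and effectors, 12 had a probe on the array. In the Met series 9 of the 12 rose and 0 fell at limma's adjusted p under 0.05, against 85.1% of all probes rising. Under 0.2 in both brain arrays were 9 of the 12, against 66% of all probes. The 3 at a mean of at least 0.2 were Grm7 (a presynaptic metabotropic receptor), with 0.559 in A2B5_mas and 0.599 in PSA-NCAM_mas, Ppp3r1 (the regulatory subunit of calcineurin), with 0.588 and 0.538, and Slc1a3 (the astrocyte glutamate transporter GLAST), with 0.234 and 0.237. Grm7 resembled Gria3 in its high Met_0 value of 0.626, but was lower, by 0.0406, in A2B5_mas where Gria3 was higher. Of 25 marker genes of glial, neuronal, microglial and endothelial cells, 8 had a probe, none of them microglial or endothelial. The beta values of these 8 in the brain arrays ran from 0.0549 (Mbp) to 0.640 (Gfap). CpG methylation at these few genes did not settle which cells the brain arrays hold.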

How the data were processed

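Bisulphite-converted genomic DNA of 7 samples was hybridised to a custom GoldenGate array, per the labels' protocols. Values of 382 probes on these arrays were deposited, and were taken as methylation fractions (beta values) because all values lay between 0.0282 and 0.972 and 0 were missing. The labels name no software, background correction, normalization or genome build. A scaling between arrays could change every difference. An array has no read depth, and its precision is limited by having 1 array per title.

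The Met arrays were fitted probe by probe with limma 3.58.1 in R 4.3.3 on log2(beta / (1 - beta)) against the title number divided by 100, with Benjamini-Hochberg adjustment over all 382 probes. The code was checked on simulated straight lines with noise at the lower quartile of the residual SDs. The real Met curves are bent, so this check does not cover how the line fits them. The limma p-values measure only the spread of these arrays around a line. All other comparisons used fixed sizes: 0.2 for low, 0.3 for a rise in the Met series, 0.05 between brain arrays and 0.1 against Met_0. Other steps used Python 3.11.15, pandas 2.3.3, numpy 2.4.6 and scikit-learn 1.9.0 (isotonic Met curves), and plots matplotlib 3.10.9. 1 member is not reported here by name, though the counts and medians over members include it, and the others were all named. Of the glutamate list, genes with a mean brain level of at least 0.2 or a difference of at least 0.05 were named, and for the 3 highest members the 2 nearest probes. Promoter windows came from RefSeq, GRCm38.p6. The members, lists and sizes were chosen with earlier results of these data known.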

Additional observations from a re-analysis of the deposited data

How the results depend on the processing

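The 13 counts and class medians were recomputed as 44 alternative values, of which 8 moved by more than a factor of 1.5 for counts or the array SD of 0.0231 for medians. Several of the others were fixed by construction, such as ranks in place of the evenly spaced title numbers, so their number is no measure of stability. The number of rising members, 16, ranged from 0 to 17 when each Met array was left out. Over all 382 probes the number rising, 325, ranged from 0 to 341. Among members it was 17 without Met_25, where limma gave every member the same SE. The number was 0 only without Met_100, where the median slope was 5.02 against 4.75 and the median SE 1.70 against 1.05. Without Met_0 the median slope was 2.61. The 2 members at least 0.05 above PSA-NCAM_mas in A2B5_mas became 0 with a limit of 0.1 and 0 after quantile normalization. Members at least 0.1 above Met_0 in both brain arrays, 2, became 4 at a size of 0.05 and 0 at 0.2, and those below it, 4, became 7 at 0.05. The AMPA class median of 0.146 became 0.20 as a mean and 0.0850 over responsive probes, which leaves out Gria3. The counts of low members were 11 in each brain array under 0.1, and 11 in both, against 48.7% of all probes. Read off the Met curves with a limit of 20% they were 18, Gria3 included although its curve has no rise. That limit is lenient: Met_25 held a median of 66.4% of the rise over the 16 responsive members, and values below Met_0 read 0. The curve count was not made over all probes and is no support for low levels. No paired analysis was possible because each title has 1 array and the labels give no replicate numbers.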
